A study of Mus musculus with 35 samples.

Results

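The genes of fatty acid uptake and oxidation were followed through CD8+ T cells and whole organs of healthy mice. The set holds 46 genes of 20882 with a named probe. They were chosen by name, for uptake and binding of fatty acids, activation to acyl-CoA, the carnitine shuttle, mitochondrial and peroxisomal beta-oxidation, and control by PPAR and PGC-1 proteins. All 46 had at least 1 probe on the array. The study measured RNA on 35 one-colour arrays from female wild-type C57BL/6 mice of 8 to 16 weeks, with no genetic change and no treatment in any group. Liver Trm (n = 5), lung Trm (n = 6) and intestine Trm (n = 6) were resident memory cells, selected magnetically as CD8b+ and then as CD103+ after a Percoll gradient. Blood Tem (n = 6), circulating effector memory cells selected as CD8b+ and CD62L-, came from the same animals and served as the nonresident comparison. Unsorted whole liver, whole lung and whole intestine, with whole PBMC from blood (n = 3 each), were left as dissociated and served to gauge tissue cells left in the sorted fractions. The labels do not say which arrays share an animal, so p-values measure only the spread between these samples.

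Fatty acids enter cells with help from CD36 and the fatty acid transport proteins and are carried inside by fatty acid binding proteins. Acyl-CoA synthetases activate them, carnitine palmitoyltransferases pass the acyl group into mitochondria, and a cycle of dehydrogenases, hydratases and thiolases shortens the chain. Peroxisomes shorten very long chains, and the nuclear receptors PPARα, PPARδ and PPARγ switch many of these genes on. Hepatocytes and enterocytes are rich in this machinery, and memory CD8+ T cells are known to use fatty acid oxidation.

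Levels below are log2 intensities relative to the 75th percentile of each array, so 0 is a bright spot and values near -8 are background. Some levels well above -8 were also not above background, so the scanner's mark, and not the level, tells detection. A gene was above background on an array when the scanner software marked any of its probes well above background. The sorted arrays and the set of all 35 arrays were scaled separately, and levels are on the sorted-cell scale unless the all-array scale is named. A gene was called when limma's adjusted p was under 0.05. Before any comparison, tissue-cell RNA was measured in the sorted fractions. All 17 hepatocyte markers tested were higher in liver Trm than in Tem, with a median log2 difference of 7.22, and so were 6 of 6 liver endothelial and Kupffer markers. Vascular endothelial markers were higher for 5 of 7 and neutrophil markers for 4 of 5 in liver Trm. Over all genes tested, 14.9%, 2.1% and 8.1% were higher in liver, lung and intestine Trm than in Tem. In lung Trm 8 of 10 alveolar macrophage, 4 of 9 lung epithelial and 3 of 5 neutrophil markers were higher. In intestine Trm 6 of 7 fibroblast and smooth muscle, 3 of 3 enterocyte and 2 of 7 vascular endothelial markers were higher. Only markers well above background on 3 or more arrays of 1 sorted group were tested. Probes covered 20 hepatocyte, 11 liver endothelial and Kupffer, 12 vascular endothelial, 8 neutrophil and 11 alveolar macrophage markers. They also covered 11 lung epithelial, 8 fibroblast and smooth muscle and 13 enterocyte markers. Since 17 hepatocyte and 11 enterocyte markers were on no Tem array, any of these tested passed through a Trm group. T cell markers were higher than in the matching whole organ or PBMC for 10 or 11 of 11 genes in each sorted group, and 3 of the 11 were lower in liver Trm than in Tem. Whole liver 2, with 64.6% of probes above background against 27.5% and 27.4% on the other whole liver arrays, stood apart most, and liver Trm 3, with 12.2%, and whole PBMC 1, with 7.80%, were dimmer than the rest of their groups. Probes never above background on any array differed by a median log2 of 1.33 between liver Trm and Tem, so the floor itself lay higher in liver Trm. In intestine and lung Trm against Tem the same probes differed by 0.71 and 0.24.

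Which of these genes could be seen in the T cells at all was the first question. Of the 46, 29 passed the brightness filter in the sorted cells (well above background on 3 or more arrays within 1 group) and 17 did not. The 17 were Cd36, Slc27a4, Acsl3, Acsl6, Cpt1b, Cpt2, Crat, Slc25a20, Acads, Acadsb, Hadh, Ehhadh, Decr2, Ppara, Pparg, Ppargc1a and Ppargc1b. Of these, 10 were above background on no sorted array. Each of the 10 was above background on at least 1 whole-organ array, and 6 of them on 1 alone. That array was whole liver 2, the brightest of all, for Acsl6, Crat, Slc25a20 and Acads, and whole intestine 3 for Acsl3 and Ppargc1a.

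A core of 11 genes was above background on every array of all 4 sorted groups. It comprised the chain-length dehydrogenases Acadvl and Acadm, the hydratase Echs1, the mitochondrial thiolase Acaa2, the auxiliary enzymes Decr1, Eci1, Eci2 and Ech1 that handle unsaturated chains, both electron transfer flavoprotein subunits Etfa and Etfb, and the peroxisomal thiolase Acaa1a, whose probe may also read its close paralog Acaa1b. None of the 11 was called in any comparison of a Trm group with Tem, where 40.3%, 3.13% and 17.7% of all genes were called in liver, lung and intestine Trm. In simulated liver Trm against Tem, 21% of genes changed by 1 log2 were called, so a gene not called may still differ. In liver Trm 12 members were above background on every array, in lung Trm 22 and in intestine Trm 18, against 22 in blood Tem. Whole liver had 31, whole lung 29, whole intestine 35 and whole PBMC 4.

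**Figure D1:**
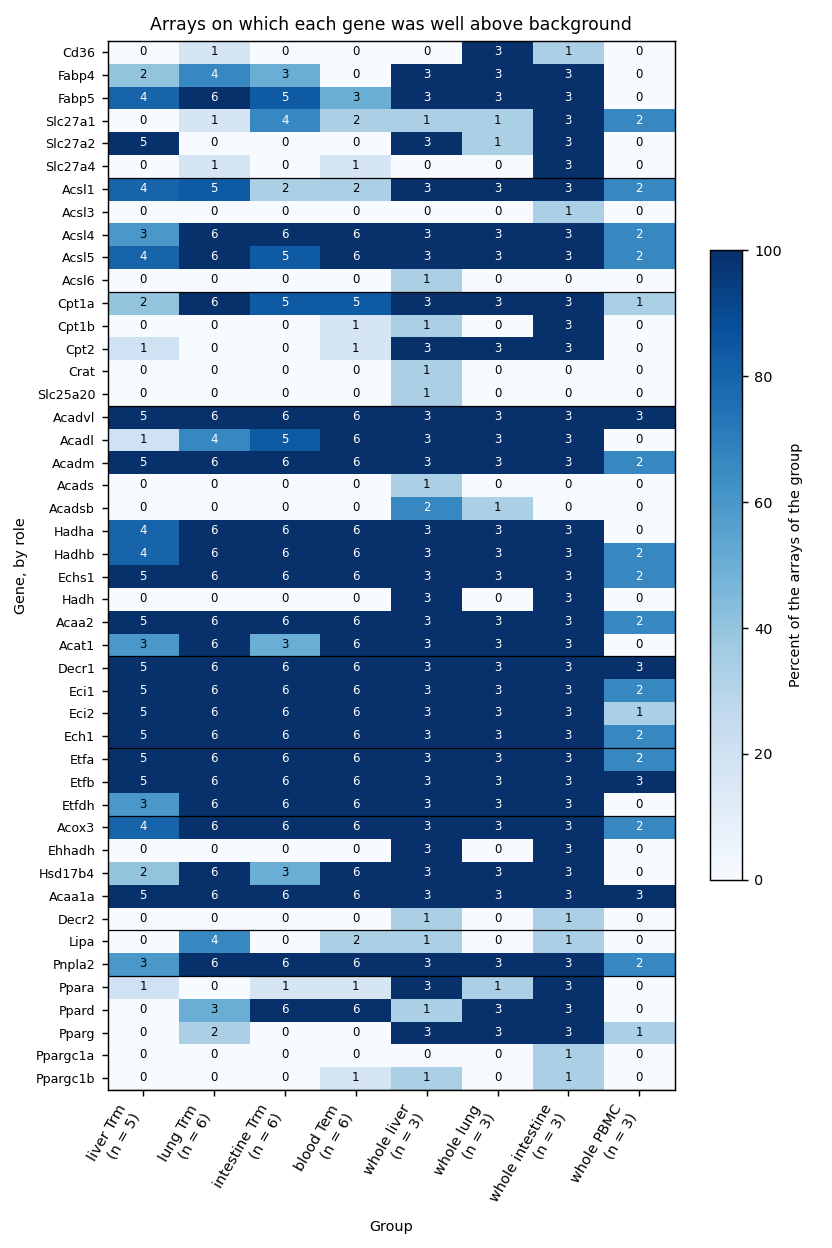
Number of arrays on which each of the 46 genes (rows, grouped by role) was well above background in each of the 8 groups (columns); the shade is the percent of the group's arrays. The auxiliary enzymes and electron transfer subunits Etfa and Etfb are filled across the 4 sorted groups, while most of the carnitine shuttle and the PGC-1 genes are empty there.

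Against blood Tem, 7 of the 29 genes tested were called in liver Trm, 4 higher and 3 lower, where 40.3% of all 8618 genes were called (14.9% higher and 25.4% lower). The 4 higher genes were Slc27a2, Fabp4, Acsl1 and Fabp5, and the 3 lower were Ppard, Cpt1a and Hadhb. The median difference of the 29 was -0.11, against -0.28 over all genes. In lung Trm 1 of 29 was called, higher, where 3.13% of all genes were called (2.1% higher and 1.03% lower). In intestine Trm 2 were higher and 1 lower, where 17.7% of all genes were called (8.1% higher and 9.61% lower). The medians over the 29 were 0.05 in lung Trm and -0.03 in intestine Trm, against -0.10 and -0.03 over all genes. Scaling over all probes moved the median of all genes in liver Trm against Tem to -0.75. The calls among the 29 were then 3 higher and 10 lower, and 19.8% of all called genes were higher. In the scaling used above, 1287 of 3476 called genes were higher. With that scaling the intestine Trm calls were 2 higher and 4 lower, and 30.4% of all called genes were higher, against 45.7% in the scaling used above. With normexp background correction the liver Trm calls were 5 higher and 0 lower, and 66.2% of all called genes were higher.

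**Figure D2:**
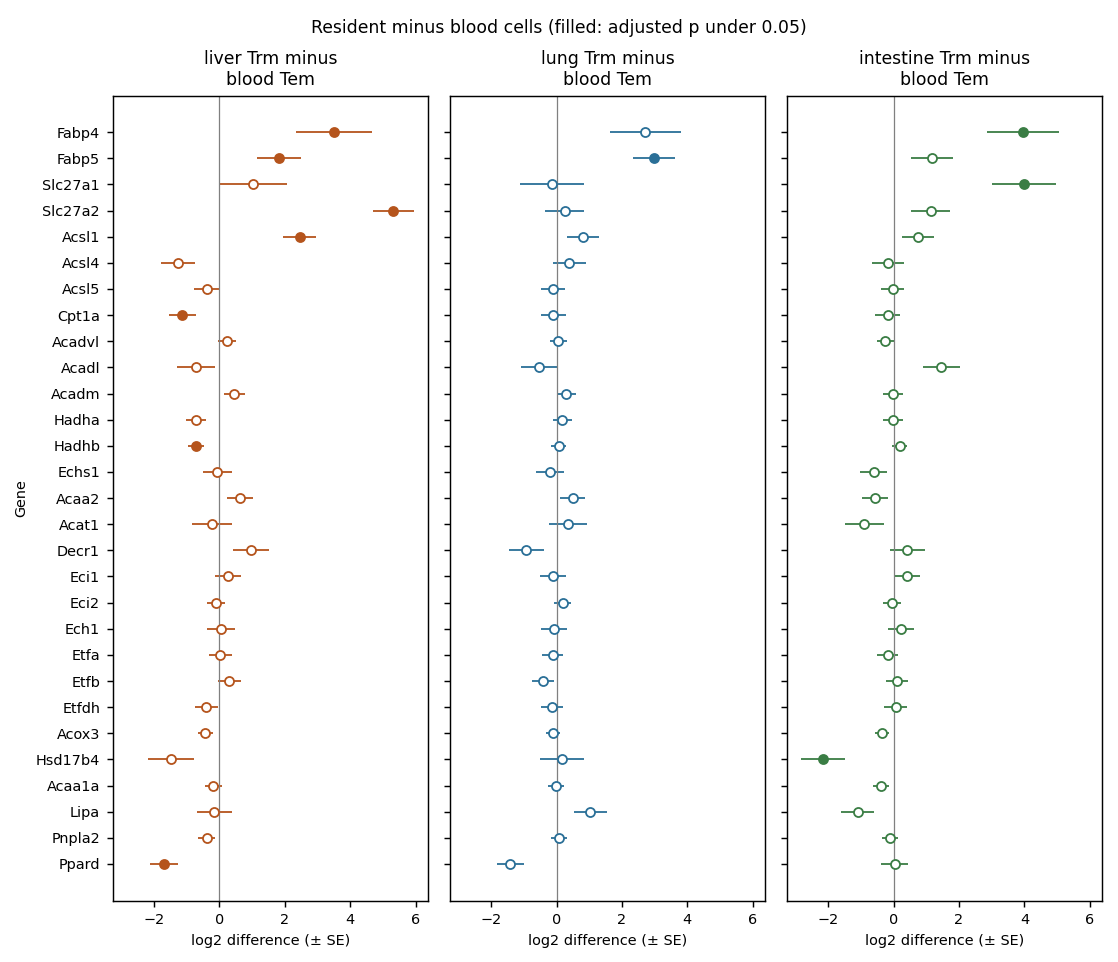
Log2 difference of each Trm group minus blood Tem (x axis, ± SE) for the 29 genes tested (y axis, by role); filled points were called at an adjusted p under 0.05. Uptake and binding genes lie at the right in liver and intestine, and the beta-oxidation, auxiliary and electron transfer genes lie near 0.

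Of 6 uptake and binding genes 4 were tested, and 3 of these were higher in liver Trm, 1 in lung Trm and 2 in intestine Trm. Slc27a2 passed the filter through liver Trm alone, and Slc27a1 through intestine Trm alone. Fabp4 passed it through lung and intestine Trm and not through Tem. These counts therefore say nothing of the group as a whole. Slc27a2 encodes FATP2, a transporter and very-long-chain acyl-CoA synthetase abundant in liver, kidney and gut. Its levels on liver Trm 1, 2, 3, 5 and 6 were -4.67, -5.97, -1.07, -1.89 and -3.26, all above background. In blood Tem the lowest, median and highest levels were -10.42, -8.39 and -7.91, none above background. The liver Trm arrays lay above every Tem array without overlap. The difference was 5.32 ± 0.63 (log2, SE; adjusted p = 4.49e-06), and liver Trm was at least 8.22-fold higher, on all 5 slides that held both groups. In RNA of a whole fraction, fewer cells of a type and less RNA per cell cannot be told apart. This and the other "at least" values set the brighter mean against the lowest signal that counted as above background on each dimmer array. Slc27a2 was above background on no lung Trm array and no intestine Trm array. Lung Trm was lower than liver Trm (fell by 5.07 ± 0.63, adjusted p = 1.03e-05) and so was intestine Trm (fell by 4.18 ± 0.63, adjusted p = 9.36e-05).

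Fabp4 encodes a fatty acid binding protein of adipocytes, macrophages and capillary endothelium. Its levels on liver Trm 1, 2, 3, 5 and 6 were -7.55, -4.58, -3.95, -3.66 and -5.45, with arrays 2 and 5 above background. In intestine Trm they ran from -7.74 through a median of -4.87 to -0.29, with arrays 2, 3 and 4 above background. In lung Trm they ran from -8.07 through -5.66 to -3.14, with 4 of 6 arrays above background. In blood Tem they ran from -10.24 through -8.25 to -7.78 with none above background. Intestine Trm was at least 3.54-fold higher than Tem (difference 3.96 ± 1.1, adjusted p = 0.0154), and liver Trm at least 2.59-fold higher (3.51 ± 1.15, adjusted p = 0.0212). Fabp4 passed the filter through lung and intestine Trm and not through Tem, so its comparisons with Tem rest on groups where it was high. All liver and all intestine arrays lay above all Tem arrays, although part of them were themselves below background. Probes never above background on any array were also higher than in Tem, by a median of 1.33 in liver Trm and 0.71 in intestine Trm. Lung Trm differed by 2.72, which was not called (adjusted p = 0.224). Leaving out liver Trm 3 or liver Trm 5 ended the liver call, with adjusted p up to 0.0997. Cdh5, the endothelial cadherin, was above background on intestine Trm 2 and 3, at -2.88 and -5.58, and not on intestine Trm 4 at -6.48. The summed level of 12 endothelial markers on the all-array scale ranged from -2.88 to 1.07 in intestine Trm and from -3.66 to -1.61 in Tem. Their part in the Fabp4 result was not tested. Of 7 adipocyte markers, 5, 3, 4 and 5 were on no array of liver Trm, lung Trm, intestine Trm and Tem, and Adipoq, the 1 tested, was not called in any Trm group against Tem.

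Fabp5 encodes the epidermal fatty acid binding protein, which is widely expressed and found in macrophages and T cells. In lung Trm its levels ran from -3.98 through -2.43 to -1.11, above background on all 6 arrays. In blood Tem they ran from -7.33 through -5.46 to -3.50, above background on 3 of 6. The 2 groups overlapped through 1 lung array, yet lung Trm was higher on all 6 slides. Lung Trm was 7.84-fold higher (difference 2.97 ± 0.64, adjusted p = 0.00967), the only member called there. Liver Trm levels were -4.99, -3.51, -4.76, -1.47 and -3.48, which was 3.55-fold higher than Tem (1.83 ± 0.67, adjusted p = 0.0350) and overlapped it. Intestine Trm differed from Tem by 1.18 (adjusted p = 0.223). No direct comparison between Trm groups called Fabp5, so a difference between organs was not shown. The liver call was lost under 9 of 19 alternatives and the lung call under none of 20. Alveolar macrophage markers had a summed all-array level of -2.17 to 2.30 in lung Trm and of -4.05 to -1.80 in Tem. That sum was -1.6 to 1.95 in liver Trm and -3.1 to 1.33 in intestine Trm. Each sum adds unlogged intensities, so its brightest genes weigh most. Of the 11 markers, 6 were on no liver Trm array, 9 on no intestine Trm array and 0 on no lung Trm array. The list includes Fabp1, the liver fatty acid binding protein, which is also on the hepatocyte list. The part of these markers in the lung Fabp5 result was not tested.

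Slc27a1 encodes FATP1, an insulin-responsive transporter of muscle and fat. Intestine Trm 1 to 6 read -2.19, -1.56, -7.43, -5.63, -1.30 and 1.85, with arrays 3 and 4 not above background. Blood Tem read -6.32, -7.26, -7.10, -6.79, -6.33 and -6.40, with arrays 3 and 5 above background. Arrays 1, 2, 4, 5 and 6 of intestine Trm stood above all Tem arrays, with arrays 1, 2, 5 and 6 far above, and array 3 stood below them all. Intestine Trm was higher than Tem (3.99 ± 0.98, adjusted p = 0.00702), on 5 of 6 slides. Against lung Trm it was also higher (4.13 ± 0.98, adjusted p = 0.00894). Both differences were taken against groups mostly at background, with 2 of 6 Tem arrays and 1 of 6 lung Trm arrays above it. Of the 4 high arrays, only array 2 also had Fabp4 above background. The summed level of the fibroblast and smooth muscle markers ranged from -2.89 to 2.28 in intestine Trm and from -4.74 to -4.20 in Tem on the all-array scale, and its part was not tested. Liver Trm had Slc27a1 above background on 0 of 5 arrays and lung Trm on 1 of 6.

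Cd36, the scavenger receptor for long-chain fatty acids, and Slc27a4, the enterocyte transporter FATP4, did not pass the filter. Cd36 was above background on lung Trm 1 alone among sorted arrays, at -5.15, while the other lung Trm arrays lay between -8.90 and -7.98. On the all-array scale whole lung read -5.21, -6.70 and -5.46, and Cd36 was below background on all 3 whole liver arrays.

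**Figure D3:**
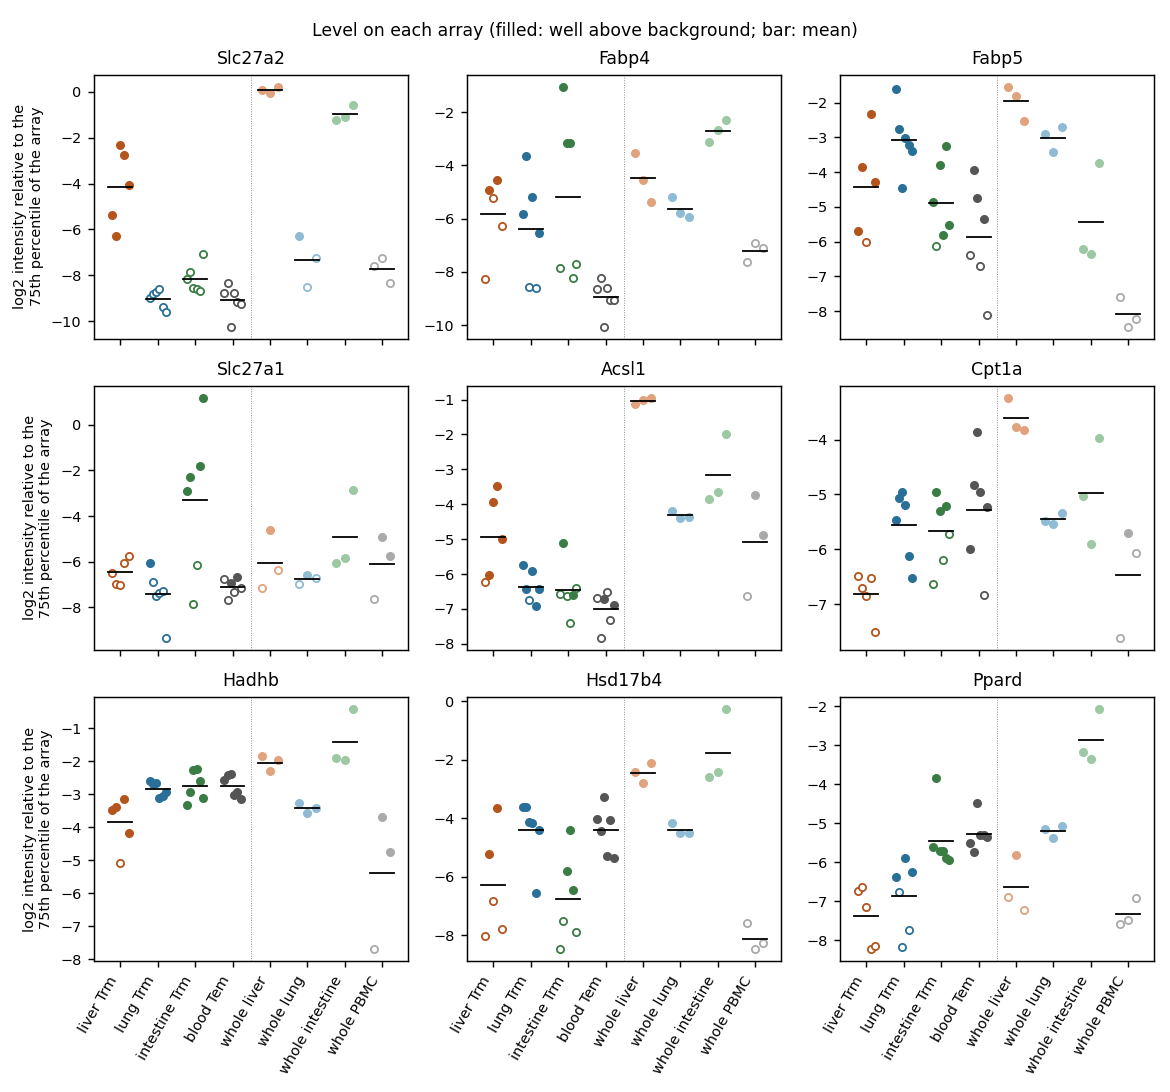
Level of 9 genes on each of the 35 arrays (y axis, log2 intensity relative to the 75th percentile of the array, all-array scale) in the 8 groups (x axis); filled points were well above background for the probe shown and bars are group means. Slc27a2 is filled in liver Trm and open in the other sorted groups, and Slc27a1 splits intestine Trm into 4 high and 2 low arrays.

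Of the acyl-CoA synthetases, Acsl1, Acsl4 and Acsl5 were tested. Acsl1 is the main long-chain synthetase of liver, fat and heart. Its liver Trm levels were -5.53, -5.70, -2.69, -2.61 and -4.17, against a range of -7.39 to -5.95 with a median of -6.56 in blood Tem. All liver Trm arrays lay above all Tem arrays. Acsl1 was above background on 4 of 5 liver Trm arrays and on 13 of the 23 sorted arrays. The difference was 5.48-fold (2.46 ± 0.51, adjusted p = 0.00202), and it kept its call under all 19 alternatives run. For scale, probes never above background on any array differed by a median of 1.33 between these groups. Acsl1 was also lower in lung Trm than in liver Trm (fell by 1.65 ± 0.51, adjusted p = 0.0346) and lower in intestine Trm than in liver Trm (fell by 1.72 ± 0.51, adjusted p = 0.0298). Neither call held once slide was added to the model (adjusted p = 0.0667 and 0.0721), and they were lost under 9 and 11 of 19 alternatives. Acsl4, which prefers arachidonic acid, was 3.16-fold higher in lung Trm than in liver Trm (1.66 ± 0.52, adjusted p = 0.0362). Liver Trm levels of Acsl4 were -3.68, -4.07, -5.90, -3.98 and -7.35, with arrays 3 and 6 below background, and the call was lost under 9 of 19 alternatives, among them leaving out either of those arrays. Acsl5 was not called between any sorted groups.

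The carnitine shuttle could be followed only through Cpt1a, the liver-type carnitine palmitoyltransferase that controls entry into mitochondria. Its tested probe was above background on no liver Trm array, with levels of -5.76, -6.36, -5.59, -5.65 and -6.69. In blood Tem the levels were -5.52, -4.38, -4.04, -4.40, -6.50 and -4.45, with array 5 not above background. Liver Trm was lower (fell by 1.13 ± 0.41, adjusted p = 0.0322), or -0.85 relative to the median of all genes. A second probe of Cpt1a, above background on 11 sorted arrays, gave 1.19 in the opposite direction. Probes never above background differed by a median of 1.33 in this comparison. The sign of the Cpt1a difference thus rests on the choice of probe, and whether the second probe follows the floor was not tested. Averaging the probes gave 0.03, and normexp background correction 0.06. Lung Trm and intestine Trm differed from Tem by -0.10 and -0.18 with neither called. Cpt1b, Cpt2, Crat and the carnitine carrier Slc25a20 did not pass the filter. Cpt2 was above background on all 9 arrays of whole liver, whole lung and whole intestine.

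Among 11 mitochondrial beta-oxidation genes 8 were tested, and 1 was lower in liver Trm than in Tem. Hadha and Hadhb encode the 2 subunits of the trifunctional protein, which carries out the last steps on long chains, and lie head to head on chromosome 5 with start sites 273 bases apart. Hadhb read -2.75, -3.04, -3.81, -2.28 and -3.36 in liver Trm, against -2.09, -1.97, -2.57, -2.45, -2.58 and -2.35 in blood Tem. One liver array, number 5, lay within the Tem range and the others below it. Liver Trm was 1.64-fold lower (fell by 0.71 ± 0.24, adjusted p = 0.0260), or -0.43 relative to the median of all genes. Hadha differed by the same amount, -0.71 ± 0.31, and was not called (adjusted p = 0.0690). Hadhb was higher than in liver Trm in both other organs, 1.72-fold in lung Trm (adjusted p = 0.0356) and 1.86-fold in intestine Trm (adjusted p = 0.0186). Leaving out liver Trm 3 or liver Trm 6 ended each of these Hadhb calls, and that of lung Trm against liver Trm was also lost once slide was added to the model (adjusted p = 0.0640). Normexp correction and fitting only the arrays compared also ended each of them. In all, the call against Tem was lost under 8 of 19 alternatives. Those of lung and intestine Trm against liver Trm were lost under 10 and 7 of 19. The promoter window of Hadhb, around the RefSeq start (GRCm38.p6, chr5:30155003-30155302, plus strand), is shown because its first 228 bases are also part of the Hadha window on the opposite strand.
Hadhb: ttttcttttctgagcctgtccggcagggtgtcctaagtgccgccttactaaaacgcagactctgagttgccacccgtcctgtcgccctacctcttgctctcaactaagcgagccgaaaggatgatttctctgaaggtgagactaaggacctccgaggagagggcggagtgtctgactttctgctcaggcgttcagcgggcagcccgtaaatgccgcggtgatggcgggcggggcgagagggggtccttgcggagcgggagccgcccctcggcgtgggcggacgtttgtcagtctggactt

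Acadl, the long-chain acyl-CoA dehydrogenase, was higher in intestine Trm than in liver Trm (2.19 ± 0.58, adjusted p = 0.0160), where 1 of 5 arrays was above background, and 3.99-fold higher than in lung Trm (2.00 ± 0.55, adjusted p = 0.0250). The call against lung Trm was lost once slide was added to the model (adjusted p = 0.0515), on the deposited values and without intestine Trm 3 or 5. That against liver Trm was lost under 3 of 19 alternatives, 1 of them the removal of liver Trm 6 (adjusted p = 0.0552). Intestine Trm 1 to 6 read -4.05, -6.39, -3.08, -3.73, -2.78 and -4.94, and liver Trm read -7.08, -6.69, -5.85, -4.93 and -7.19. Array 2 was the intestine array below background, and liver Trm 5 was the liver array above it. Against Tem the intestine difference of 1.46 was not called (adjusted p = 0.0716). Acadvl, Acadm, Echs1, Acaa2 and Acat1, the ketone-body thiolase, were not called between any sorted groups. Their differences from Tem ranged from -0.23 to 0.63 in liver Trm, with Acat1 lowest and Acaa2 highest.

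None of the 4 auxiliary enzymes and 3 electron transfer genes was called against Tem in any organ. Of all genes, 40.3%, 3.13% and 17.7% were called there in liver, lung and intestine Trm. Decr1, the dienoyl-CoA reductase for polyunsaturated chains, was 3.72-fold lower in lung Trm than in liver Trm (fell by 1.90 ± 0.56, adjusted p = 0.0294). Lung Trm levels of Decr1 ran from -4.86 through -3.29 to -2.28, and liver Trm levels were -2.45, -3.42, -0.75, 0.24 and -1.11. The groups overlapped through liver Trm 1 and 2. The Decr1 call was lost once slide was added to the model (adjusted p = 0.0591), and when liver Trm 3, liver Trm 5, liver Trm 6 or lung Trm 6 was left out. Etfdh, the flavoprotein dehydrogenase that passes electrons to ubiquinone, differed from Tem by -0.40 in liver Trm (adjusted p = 0.355). A second Etfa probe read 1.20 in liver Trm against Tem, where the tested probe read 0.03 and probes never above background a median of 1.33.

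In peroxisomal oxidation, Hsd17b4, the D-bifunctional protein, was 4.43-fold lower in intestine Trm than in Tem (fell by 2.15 ± 0.67, adjusted p = 0.0301) and 5.00-fold lower than in lung Trm (fell by 2.32 ± 0.67, adjusted p = 0.0308). Intestine Trm levels were -7.74, -6.75, -5.36, -3.88, -5.95 and -7.24, with arrays 1, 2 and 6 not above background. Blood Tem read -3.57, -4.00, -3.46, -4.72, -3.71 and -4.58, all above background. Intestine Trm 4 lay inside the Tem range and the other 5 below it. The call against Tem and that against lung Trm were each lost under 9 of 20 alternatives. Acox3, an acyl-CoA oxidase for branched chains, and Acaa1a were not called between any sorted groups. A second Acox3 probe, which did not pass the filter, read 0.73 in liver Trm against Tem, where the tested one read -0.43.

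Of the lipases, Lipa, the lysosomal acid lipase, was above background on 4 of 6 lung Trm arrays and on no intestine Trm or liver Trm array. It passed the filter through lung Trm alone, so its comparisons rest on the group where it was high. Intestine Trm read from -8.83 through -7.92 to -7.02, against -8.53 through -5.26 to -4.57 in lung Trm. Intestine Trm was lower (fell by 2.14 ± 0.50, adjusted p = 0.00835), with lung Trm 5 inside the intestine range. On the all-array scale lung Trm was at least 1.79-fold higher than whole lung (adjusted p = 0.000276), where Lipa was on no array, and lung Trm 5 alone lay within the whole lung range. The summed alveolar macrophage level was -2.17 to 2.30 in lung Trm and -0.05 to 0.16 in whole lung, and its part in the Lipa result was not tested. The same sum was 0.96 to 1.45 in whole liver and 1.51 to 2.67 in whole intestine, so it is not particular to lung. It includes Fabp1, and its brightest genes weigh most. Of its 11 markers, 8 were on every whole lung array, 2 on every whole liver array and 3 on every whole intestine array. Pnpla2, the adipose triglyceride lipase, was not called between any sorted groups.

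Of the regulators, only Ppard, which encodes the broadly expressed PPARδ, passed the filter in sorted cells. Liver Trm read -6.03, -6.29, -5.88, -7.36 and -7.33, none above background. Intestine Trm read -4.89, -3.10, -5.26, -5.19, -5.38 and -5.27, all above background. Blood Tem read -5.05, -5.28, -4.65, -4.73, -4.97 and -4.57, all above background. Every liver Trm array lay below every Tem and every intestine Trm array. Liver Trm was lower than Tem (fell by 1.70 ± 0.43, adjusted p = 0.00618), which is at least 1.14-fold lower against the detection floor, and was lower on all 5 slides. Relative to the median of all genes the difference was -1.43. Normexp background correction ended the calls of Ppard in liver Trm against Tem (adjusted p = 0.243) and in intestine Trm against liver Trm (0.173). Intestine Trm was at least 1.16-fold higher than liver Trm (1.73 ± 0.43, adjusted p = 0.0101) and 2.72-fold higher than lung Trm (1.44 ± 0.41, adjusted p = 0.0274). The call against lung Trm was lost under 7 of 20 alternatives. Lung Trm lay between, above background on arrays 1, 4 and 6, and its difference of -1.42 from Tem was not called (adjusted p = 0.0603). Whole liver was likewise low in Ppard, lower than the mean of whole lung and whole intestine (fell by 2.75 ± 0.52, adjusted p = 0.00274).

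Ppara, the fasting-response receptor of liver, was above background on liver Trm 5, intestine Trm 6 and 1 Tem array. The Ppara levels there were -4.74, -4.73 and -6.99. Pparg, the adipocyte and macrophage receptor, was above background on lung Trm 1 and 4 alone among sorted arrays, at -5.44 and -3.42, while the other lung Trm arrays lay between -8.01 and -6.61. Ppargc1a, the coactivator PGC-1α, was on no sorted array and Ppargc1b on 1, in blood Tem. No difference in these 4 regulators could be tested between sorted groups at this brightness.

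The direct comparisons between Trm groups called 5 of the 29 genes each. Lung Trm against liver Trm had 2 higher and 3 lower, where 17.8% of all genes were called (9.31% higher and 8.53% lower). Intestine Trm against liver Trm had 3 higher and 2 lower, where 11.7% were called (8.88% higher and 2.84% lower). Intestine Trm against lung Trm had 3 higher and 2 lower, where 9.5% were called (5.24% higher and 4.26% lower). Of the members called here, Slc27a2, Slc27a1 and Lipa passed the filter through liver, intestine and lung Trm alone, respectively. Scaled over all probes, lung Trm against liver Trm had 9 higher and 3 lower, and 82.3% of all called genes were higher, against 52.2% in the main scaling. Intestine Trm against lung Trm had 2 higher and 4 lower in that setting (34.8% of all called genes higher), 1 higher and 4 lower on the deposited values (33.9%) and 3 higher and 1 lower with normexp (67.0%), against 55.2%. On the deposited values the counts were 8 higher and 3 lower for lung Trm against liver Trm (64.3% of all called genes higher), and 4 higher and 4 lower for intestine Trm against liver Trm (57.8%, against 75.7%). With normexp they were 0 higher and 3 lower (10.6%) and 0 higher and 1 lower (56.4%).

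Genes that follow whole liver were separated with the 12 whole-organ arrays alone. In whole liver against the mean of whole lung and whole intestine, 5 of 36 members tested were higher and 1 lower, where 17.4% of all 9520 genes were called (7.01% higher and 10.4% lower). The 5 were Slc27a2, Ehhadh, Ppara, Acsl1 and Fabp5. Slc27a2 on the all-array scale read 0.09, -0.06 and 0.23 in whole liver, against -6.27, -8.50 and -7.23 in whole lung and -1.22, -1.09 and -0.59 in whole intestine. Every whole liver array lay above every whole intestine array, and whole lung lay far below both. The difference was 17.1-fold (4.09 ± 0.53, adjusted p = 0.000163). Acsl1 read -1.14, -1.01 and -0.95 in whole liver, against -4.21, -4.38 and -4.36 in whole lung and -3.86, -3.66 and -1.98 in whole intestine (5.93-fold, 2.57 ± 0.75, adjusted p = 0.0342). Fabp5 was 4.35-fold higher (2.12 ± 0.63, adjusted p = 0.0365), a call lost under 11 of 17 alternatives, among them slide added to the model (adjusted p = 0.0509). Leaving out any 1 whole-liver or whole-lung array ended the calls of Acsl1 and Fabp5, and the count of higher members was 14 when only the 9 arrays compared were fitted, 12 on the deposited values, and 10 without whole liver 2 and whole PBMC 1. All genes called were then 918 higher and 1753 lower, 781 and 1796, and 820 and 2280.

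Of the 5, Slc27a2, Acsl1 and Fabp5 were also called higher in liver Trm than in Tem, with the Fabp5 call lost under several alternatives in both comparisons. Fabp5 was higher in lung Trm as well. Fabp4, the other gene higher in liver Trm, did not differ in whole liver beyond its error (-0.46 ± 0.54, adjusted p = 0.619). Ehhadh, the peroxisomal bifunctional enzyme, read -2.88, -3.17 and -3.51 in whole liver and was above background on 0 of 5 liver Trm arrays, at -8.44, -8.71, -7.11, -6.95 and -8.12 on the all-array scale. Ppara read -2.57, -2.60 and -2.21 in whole liver and -8.22, -8.54, -7.02, -5.39 and -7.94 in liver Trm. Against whole liver itself, liver Trm was 19.1-fold lower in Slc27a2 (fell by 4.26 ± 0.61, adjusted p = 1.35e-06), 15.0-fold lower in Acsl1 (adjusted p = 2.52e-06) and at least 6.39-fold lower in Ehhadh (adjusted p = 7.31e-10).

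**Figure D4:**
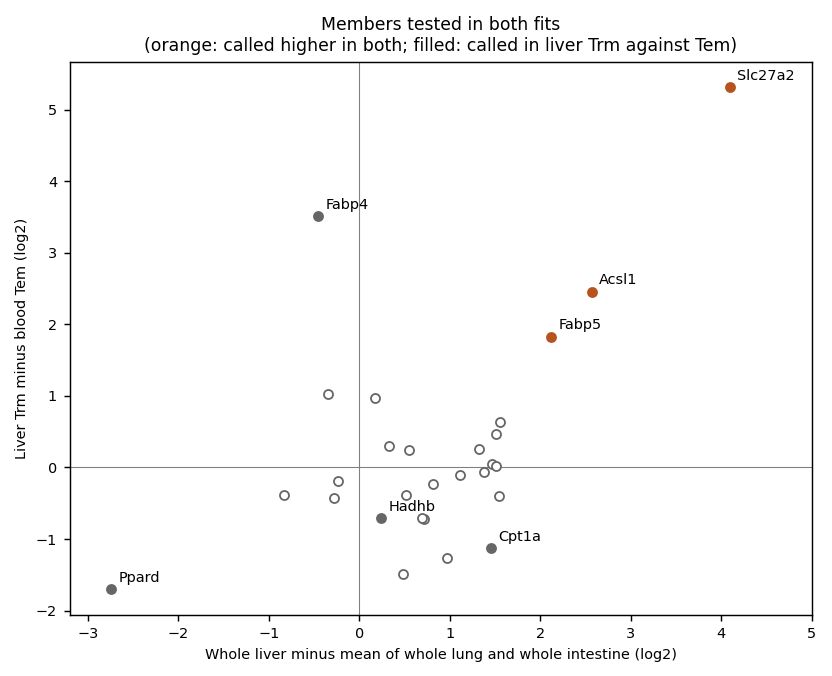
Members tested in both fits, with whole liver minus the mean of whole lung and whole intestine on the x axis (log2) and liver Trm minus blood Tem on the y axis (log2); orange points were called higher in both, filled points were called in liver Trm against Tem. Slc27a2, Acsl1 and Fabp5 lie at the upper right, Ppard at the lower left, and Fabp4 is high on the y axis alone.

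Within liver Trm, arrays 3 and 5 were the highest in Slc27a2 and Acsl1. Albumin, the defining hepatocyte gene Alb, read -1.48, -2.29, 2.25, 1.46 and 0.26 on liver Trm 1, 2, 3, 5 and 6, and Ahsg read -0.53, -0.97, 2.81, 2.24 and 1.16. Fabp5 did not share this order: it was highest on array 5, and array 3 was second lowest and not above background. Slc27a2 had the same order of arrays as Alb, from array 3 through 5, 6 and 1 to 2. Acaa2, at -1.91, -2.22, -0.15, 0.29 and -1.66, and Etfb, at -0.53, -1.16, 1.05, 1.24 and 0.07, were also highest on arrays 3 and 5. Hadhb was lowest on array 3, and Ppard lowest on arrays 5 and 6. With 5 arrays no correlation was computed. Across liver Trm the summed level of 20 hepatocyte markers ranged from 1.63 to 4.79 on the all-array scale, against -3.78 to -3.25 in Tem and 4.83 to 4.99 in whole liver. In Tem 17 of the 20, Alb among them, were above background on no array. Their part in the Slc27a2, Acsl1 and Fabp5 results was not tested.

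**Figure D5:**
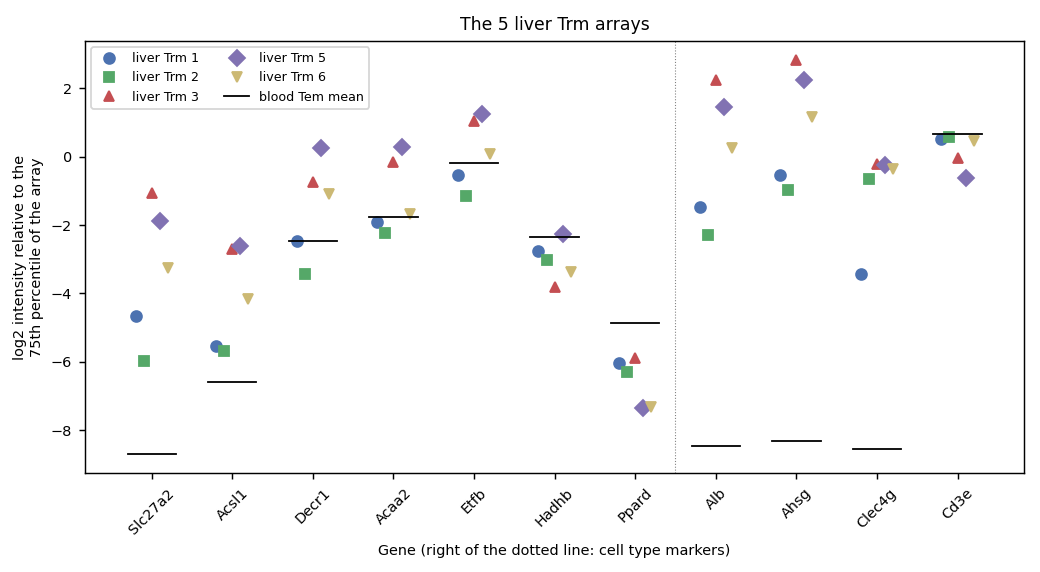
Levels on the 5 liver Trm arrays (symbols) of 7 fatty acid genes and, right of the dotted line, 4 markers (x axis), as log2 intensity relative to the 75th percentile of the array on the sorted-cell scale (y axis); black bars are blood Tem means. Liver Trm 3 and 5 are highest in Slc27a2, Acsl1, Decr1, Acaa2, Etfb, Alb and Ahsg, and Cd3e, a T cell marker, spans -0.63 to 0.58.

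Promoter windows of Slc27a2, Acsl1 and Ehhadh, which were among the 5 members higher in whole liver, are shown to compare the PPAR half-site AGGTCA, read on both strands and given in capitals (as AGGTCA or its complement TGACCT). RefSeq windows were matched for 37 of the 46 genes, 44 windows in all. The half-site was in 9 of the 44, for 8 genes (Acadm, Acadvl, Acsl6, Cd36, Cpt1a, Echs1, Pparg and Slc27a2), and in 16.2% of 32544 windows of the same length. The DR1 repeat, a pair of half-sites with 1 base between them, was in none of the 44 and in 0.0399% of all windows. Slc27a2 holds 1 half-site, and the windows of Acsl1 and Ehhadh hold none. The windows are Slc27a2 at chr2:126552774-126553073 (plus), Acsl1 at chr8:46470787-46471086 (plus) and chr8:46490716-46491015 (plus), and Ehhadh at chr16:21787785-21788084 (minus), all in GRCm38.p6.
Slc27a2: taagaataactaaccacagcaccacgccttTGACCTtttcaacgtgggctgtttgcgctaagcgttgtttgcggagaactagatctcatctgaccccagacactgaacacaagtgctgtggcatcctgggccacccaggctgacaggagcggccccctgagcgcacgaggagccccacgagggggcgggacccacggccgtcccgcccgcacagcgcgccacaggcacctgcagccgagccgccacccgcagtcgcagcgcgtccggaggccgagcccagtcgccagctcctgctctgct
Acsl1, upstream start: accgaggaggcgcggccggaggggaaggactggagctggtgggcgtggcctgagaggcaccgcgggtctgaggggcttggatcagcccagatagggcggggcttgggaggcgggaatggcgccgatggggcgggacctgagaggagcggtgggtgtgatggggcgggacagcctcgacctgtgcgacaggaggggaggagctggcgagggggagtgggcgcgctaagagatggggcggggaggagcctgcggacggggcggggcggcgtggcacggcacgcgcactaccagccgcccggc
Acsl1, downstream start: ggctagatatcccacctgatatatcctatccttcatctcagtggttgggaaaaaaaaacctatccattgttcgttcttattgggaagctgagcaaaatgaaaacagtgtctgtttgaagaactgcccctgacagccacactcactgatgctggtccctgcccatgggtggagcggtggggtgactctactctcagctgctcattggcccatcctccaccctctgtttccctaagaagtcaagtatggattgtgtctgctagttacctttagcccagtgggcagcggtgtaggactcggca
Ehhadh: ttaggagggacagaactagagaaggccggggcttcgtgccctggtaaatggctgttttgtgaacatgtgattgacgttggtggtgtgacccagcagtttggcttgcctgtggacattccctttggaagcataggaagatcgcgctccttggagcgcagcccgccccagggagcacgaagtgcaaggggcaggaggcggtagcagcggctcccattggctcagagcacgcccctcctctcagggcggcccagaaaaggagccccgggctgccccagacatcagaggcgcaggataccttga

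Each sorted group was then set against its own whole organ or PBMC, on the all-array scale. Liver Trm had 0 higher and 28 lower of 37 members tested against whole liver, where 32.3% of all 10631 genes were called (8.53% higher and 23.8% lower). The median of the 37 was -2.22, against -0.33 over all genes. Intestine Trm had 0 higher and 21 lower against whole intestine, where 31.8% were called (11.7% higher and 20.1% lower). Lung Trm had 2 higher and 9 lower against whole lung, where 41.5% were called (15.7% higher and 25.8% lower). Tem had 18 higher and 4 lower against whole PBMC, where 55.2% were called (43.9% higher and 11.4% lower). Sorted cells and whole organs were hybridised on different slides, so slide and group cannot be told apart in these 4 comparisons. Of all called genes 26.4% were higher in liver Trm than in whole liver, and 40.0%, 36.5% and 42.8% on the deposited values, with normexp and scaled over all probes, where the members stood at 0 higher and 25, 26 and 25 lower. In Tem against whole PBMC the share was 79.4%, and 61.9%, 66.0% and 54.6% in those settings, with 13, 13 and 14 members higher and 4, 4 and 8 lower.

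By role, all 9 mitochondrial beta-oxidation genes tested were lower in liver Trm than in whole liver, from 1.53 for Hadha (fell by 1.53) to 3.00 for Acadl (fell by 3.00). In intestine Trm 6 of the 9 were lower, Hadh, the hydroxyacyl-CoA dehydrogenase of shorter chains, at least 6.39-fold. In lung Trm 1 of 9 was lower, Acadvl at 2.37-fold, and Hadha was 2.68-fold higher. Blood Tem had 6 of the 9 higher than whole PBMC, with Hadhb 6.21-fold higher and Echs1 7.13-fold higher. Decr1 stood apart from these: it was 6.30-fold lower in Tem than in whole PBMC and 14.1-fold lower in lung Trm than in whole lung. Slc27a2 was at least 40.5-fold lower in intestine Trm than in whole intestine, at -8.15, -7.87, -8.57, -8.58, -8.69 and -7.08 against -1.22, -1.09 and -0.59. Cpt2, the inner-membrane carnitine palmitoyltransferase, was at least 13.4-fold lower there.

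Between whole organs, whole lung was low in this set, with 0 higher and 14 lower of 36 against whole liver and whole intestine, where 20% of all genes were called (8.29% higher and 11.7% lower). Hadh was at least 7.61-fold lower, Ehhadh at least 8.50-fold lower, and Slc27a2, above background on 1 of 3 whole lung arrays, was lower by 7.05 (fell by 7.05 ± 0.53). Whole intestine had 11 higher and 2 lower, where 22.3% were called (12.6% higher and 9.7% lower). Slc27a4 was at least 6.25-fold higher there, and Ppard and Hadh were higher by 3.34 and 3.83 on the log2 scale, with each of them at background on part of the other arrays, while Fabp5 and Acsl4 were lower. Of all called genes 41.4% were higher in whole lung, and 54.3% on the deposited values and 57.4% scaled over all probes, where the members stood at 2 higher and 17 lower and 2 higher and 15 lower. For whole liver the share was 40.3%, and 23.4% scaled over all probes, with 5 members higher and 3 lower.

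Other lipid genes were counted on 6 further lists of 87 genes. In liver Trm against Tem, 20 were higher and 10 lower of 53 tested, where 14.9% of all genes were higher and 25.4% lower. Among the higher genes were Fabp1, the liver fatty acid binding protein (at least 95.9-fold), the lipid droplet protein Cideb (at least 9.09-fold) and the omega-hydroxylase Cyp4a10 (at least 6.58-fold). The 4 lowest were the AMP-activated kinase subunit Prkaa1 (-1.57), Acad9, an acyl-CoA dehydrogenase that also serves complex I assembly (-1.46), the desaturase Scd2 (-1.42) and the acetyl-CoA carboxylase Acaca (-1.42). In intestine Trm 6 were higher and 3 lower, where 8.1% and 9.61% of all genes were, with Fabp2, the intestinal binding protein, at least 11.0-fold higher, the droplet coat Plin2 7.81-fold higher and the ileal bile acid binding protein Fabp6 6.94-fold higher. The acetyl-CoA synthetase Acss1 was lower there (-1.81, adjusted p = 0.00113), and Acad9 and Rxrb, a PPAR partner, were also lower. In lung Trm 2 were higher, where 2.1% of all genes were, Lpl, the lipoprotein lipase, at least 1.82-fold and Dgat2, a triglyceride synthase, at least 2.68-fold. Of the genes named, Fabp1 is also on the hepatocyte marker list above, Fabp2 on the enterocyte list and Lpl on the alveolar macrophage list. The part of tissue cells in these results was not tested.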

How the data were processed

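RNA of 35 mouse samples (300 pg each, 2 rounds of amplification, per the labels) was hybridised to one-colour Agilent arrays and read with Feature Extraction 11.0.1.1, per the file headers; the submitters' processing notes name Agilent Feature Extraction 10.7 and Partek. The authors deposited scanner files, per the file headers, whose processed-signal column holds an intensity per spot, and a table of log2 values whose columns matched quantile normalization of those intensities (medians all 8.549). No depth applies to arrays, and the number of arrays limits the precision.

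From the processed intensity, log2 levels were taken minus the array's 75th percentile over probes above background on all arrays of a fit. Probes above background on at least 3 arrays of 1 group were kept, and the brightest probe stood for its gene. The fits used 23 sorted, 35 or 12 whole-organ arrays (8618, 10631 and 9520 genes), with limma 3.58.1 in R 4.3.3 and Benjamini-Hochberg adjustment over all genes, called under 0.05, and were tested on simulated data. In simulated liver Trm against Tem, 21% of genes changed by 1 log2 were called in the right direction, and 88% of those changed by 3. A gene not called may therefore still differ. Replicate numbers are slides of the sorted arrays. Same-numbered arrays did not deviate together more than others did (33 pairs, correlations -0.362 to 0.436, 7 over 0.1). The 165 pairs of unlike number ran from -0.522 to 0.585, with 44 over 0.1, so the numbers were not taken as pairs.

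The members, marker lists and lipid lists were chosen with earlier results of these data known. Values per array are given for members called against Tem, for Cd36, Fabp4, Fabp5, Cpt1a and the PPAR and PGC-1 genes, and for the 4 members highest in whole liver; of other lipid genes, up to 4 per direction are named, apart from some that are not reported here. Alternatives were the deposited values, normexp correction, no filter, scaling over all probes, averaged probes, only the arrays compared, slide as a block, and each array left out.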

Additional observations from a re-analysis of the deposited data

Results flagged for a closer look

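Of 80 member and group combinations, over 20 members, 13 held an array set apart from the rest of its group (Dixon's test at 95%), where chance alone gives about 1 in 20. Lung Trm 5 was lowest in 4 genes, Hsd17b4 at -5.71, Acadl at -8.05, Lipa at -8.53 and Hadha at -4.75. Blood Tem 3 was lowest in 3 genes that were not above background in Tem, Slc27a2 at -10.42, Cd36 at -10.37 and Ppargc1a at -9.93. Single high arrays were intestine Trm 2 in Ppard (-3.10) and Pparg (-5.18, not above background), intestine Trm 6 in Ppara (-4.73) and lung Trm 1 in Cd36 (-5.15). Blood Tem 2 was highest in Acadl (-4.22) and lowest in Lipa (-7.79).

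Direct tests between Trm groups (limma, log2 differences) called 15 differences among members. Of all genes, 17.8%, 11.7% and 9.5% were called in the same comparisons, in the order below. Slc27a2, Slc27a1 and Lipa passed the filter only through the Trm group where each was high. With slide added to the model, the calls of Acsl1, Decr1 and Hadhb in lung against liver Trm were lost. So were those of Acsl1 in intestine against liver Trm and Acadl in intestine against lung Trm. Lung Trm minus liver Trm was -5.07 for Slc27a2, -1.65 for Acsl1, -1.90 for Decr1, 1.66 for Acsl4 and 0.78 for Hadhb. Intestine Trm minus liver Trm was -4.18 for Slc27a2, -1.72 for Acsl1, 2.19 for Acadl, 0.90 for Hadhb and 1.73 for Ppard. Intestine Trm minus lung Trm was 4.13 for Slc27a1, 2.00 for Acadl, 1.44 for Ppard, -2.32 for Hsd17b4 and -2.14 for Lipa. Probes never above background differed by -1.09, -0.63 and 0.46 in these 3 comparisons.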

How the results depend on the processing

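Slc27a2 and Acsl1 in liver Trm against Tem kept their calls under 19 of 19 alternatives, and Fabp5 in lung Trm and Fabp4 and Slc27a1 in intestine Trm under 20 of 20. Of these, Slc27a2, Fabp4 and Slc27a1 had passed the filter through Trm groups alone. Of 7 members called in liver Trm against Tem, no filter gave 18, scaling over all probes 13, and leaving out liver Trm 3 and blood Tem 3 gave 4. All genes called were then 11621 higher and 2349 lower, 964 and 3898, and 401 and 1522. In the main setting they were 1287 and 2189. With no filter, members that had not passed it were tested too. Intestine Trm against Tem gave 6 with scaling over all probes, against 3. All genes called were then 598 higher and 1368 lower, against 698 and 828. Lung Trm against liver Trm, with 5 called, gave 11 on the deposited values, 3 with normexp, 17 with no filter, 12 with scaling over all probes and 2 each for only the arrays compared, the replicate block and the removal of liver Trm 3 and blood Tem 3. All genes called were 802 higher and 735 lower in the main setting. In the order of those alternatives they were 2190 and 1217, 191 and 1616, 1257 and 9446, and 2865 and 618. With only the arrays compared, the block and the removal they were 592 and 1078, 464 and 473, and 518 and 830. Intestine Trm against liver Trm, with 5, gave 8 on the deposited values, 1 with normexp, 3 with no filter, 2 with only the arrays compared and 3 without liver Trm 3 and blood Tem 3. All genes called were 765 higher and 245 lower in the main setting. In that order they were then 970 and 708, 343 and 265, 414 and 204, 394 and 152, and 582 and 195. Intestine Trm against lung Trm, with 5, gave 3 with no filter, where all genes called were 338 higher and 196 lower, against 452 and 367. Whole liver, with 6, gave 15 on the deposited values, 11 with normexp, 15 with only the arrays compared and 12 without whole liver 2 and whole PBMC 1, an alternative chosen after seeing the data. All genes called were 667 higher and 988 lower in the main setting. In that order they were then 781 and 1796, 783 and 935, 918 and 1753, and 820 and 2280. Whole lung, with 14, gave 23, 24 and 26 with normexp, only the arrays compared and without whole liver 2 and whole PBMC 1. All genes called were then 767 higher and 1373 lower, 1190 and 1595, and 1524 and 1681, against 789 and 1118. The cause was not tested.

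With each array left out in turn, counts ran from 4 to 9 for liver Trm, 1 to 2 for lung Trm and 2 to 4 for intestine Trm against Tem. They ran from 1 to 8 for lung Trm against liver Trm, 2 to 6 for intestine Trm against liver Trm and 3 to 6 for intestine Trm against lung Trm. Against the whole organ they ran from 26 to 28 in liver, 8 to 11 in lung, 18 to 23 in intestine and 16 to 23 in blood. Between whole organs they ran from 4 to 10 for liver, 10 to 14 for lung and 10 to 13 for intestine. The calls over all genes moved as well. For liver Trm against Tem they were 909 higher and 1406 lower without liver Trm 6, and 1341 and 2361 without liver Trm 1. For lung Trm against liver Trm they were 299 and 308 without liver Trm 3, and 1675 and 780 without lung Trm 5. Cpt1a against Tem turned positive in liver Trm with normexp (0.0642) and averaged probes (0.0301), in intestine Trm with the same alternatives (0.0377 and 0.246), and in lung Trm with averaged probes (0.0317) and without liver Trm 3 and blood Tem 3 (0.0707). Leaving out single arrays, Cpt1a in lung Trm ran from -0.420 to 0.0928, turning positive without lung Trm 6, blood Tem 2 or blood Tem 3. Ppard in intestine Trm against Tem, at 0.03 and not called, turned negative in the authors' table (-0.0865) and under scaling over all probes (-0.245). Leaving out single arrays it ran from -0.325 to 0.131, turning negative without intestine Trm 2, blood Tem 1 or blood Tem 2. With the replicate number, which is the slide, as a block, the counts were 7, 1 and 3 against Tem and 2, 4 and 4 between Trm groups, and 5, 13 and 12 between whole organs. All genes called were then 1149 higher and 1912 lower, 160 and 73, and 629 and 703 against Tem. Between Trm groups they were 464 and 473, 585 and 201, and 384 and 305. Between whole organs they were 617 and 907, 731 and 1065, and 1126 and 845.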
